A study of Homo sapiens with 12 samples.

Results

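The effect of endothelin-1 on cultured human cardiomyocytes was measured here as 1 value per gene, averaged over the absence and the presence of sacubitrilat. All 12 libraries of the series entered it, 6 with endothelin-1 and 6 without. The cells came from WTC-mEGFP-ACTN2-cl85, a well-known clonal line of induced pluripotent stem cells of human origin (1 clone), which carries a heterozygous mEGFP tag at the C-terminus of ACTN2, so every group shares that tag. They were differentiated into cardiomyocytes and enriched with lactate. Each of 4 groups had 3 libraries, from cultures kept for 48 h with vehicle, with endothelin-1 at 10 nM, with sacubitrilat at 16 µM, or with the pair added together (below, both compounds). Messenger RNA was counted at the 3′ end. CPM values below are a gene's deposited count scaled to the total of its library.

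Endothelin-1 is a peptide that acts on cardiomyocytes through the Gq-coupled receptors EDNRA and EDNRB, phospholipase C and protein kinase C, and it is known for making cardiomyocytes larger. Hypertrophic growth of this kind is usually followed by the fetal gene program: the natriuretic peptide genes NPPA and NPPB, the slow myosin heavy chain gene MYH7 and the skeletal actin gene ACTA1. Sacubitrilat blocks neprilysin (gene MME), which cleaves small peptides, natriuretic peptides and endothelin-1 among them.

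For each gene, the log2 fold change of endothelin-1 over vehicle (the contrast without sacubitrilat) and that of both compounds over sacubitrilat alone (the contrast with sacubitrilat) were fitted in 1 model of the 4 groups with edgeR's quasi-likelihood test, and their mean is the average effect. A gene was called when its Benjamini-Hochberg adjusted p was under 0.05 over the 11203 genes that passed the filter on low counts. Library totals were 80844 to 316932 counts with vehicle and 87281 to 158791 with both compounds, against 1473744 to 1781653 with endothelin-1 and 1268308 to 1953122 with sacubitrilat. Each side of the average therefore held 1 group with low and 1 group with high totals, and the summed totals with and without endothelin-1 stood at a ratio of 1.04. The contrast without sacubitrilat instead ran from low to high totals (ratio 8.75 of high to low), and the contrast with sacubitrilat from high to low (ratio 12). Reads of mitochondrially encoded genes took 20.1% to 20.2% of counts with endothelin-1, 11.4% to 22.1% with vehicle, 15% to 17.2% with sacubitrilat and 12.8% to 17.6% with both compounds. In the 6 libraries with 1 compound, the labels' second line of description gives the compound they did not receive by title and treatment, which were followed here. With those 2 groups exchanged, 29 genes were called in the average, of which 4 are among the 205 below.

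The average called 205 of 11203 genes (1.83%), 113 higher (1.01%) and 92 lower (0.821%) with endothelin-1. At an unadjusted p under 0.05 edgeR had 1661 genes (14.8%), 710 higher (6.34%) and 951 lower (8.49%). DESeq2 called 369 (3.29%), 184 higher (1.64%) and 185 lower (1.65%), limma-voom 216 (1.93%), 108 in each direction (0.964%), and limma-trend 53 (0.473%), 23 higher (0.205%) and 30 lower (0.268%). By comparison, 2596 genes (23.2%) were called without sacubitrilat and 3925 (35%) with it. The test of the difference between the contrasts called 5163 (46.1%). Of the 205 genes, 130 (1.16% of those tested) had the same sign in both contrasts, 71 higher and 59 lower, and are called agreeing here. The other 75 had opposite signs, so that their average was the balance of a rise in 1 contrast and a fall in the other. Passing the threshold in both contrasts with the same sign was found for 34 genes (0.303%), 17 in each direction, all of which also passed in the average. Passing in both with opposite signs was found for 1706 genes (15.2%). Over all tested genes the median log2 fold change was 0.10 without sacubitrilat, -0.25 with it and -0.05 in the average. With the replicate number as a block, which the labels give as a batch, the average called 121 genes and 84 were agreeing. Without the 2 libraries under 100000 counts (vehicle library 2 and both-compound library 1), these counts were 366 and 190, and 22 genes passed in both contrasts with the same sign, 18 of them among the 34. Single libraries also moved the counts: the average called 540 genes without vehicle library 2, 111 without vehicle library 1, 110 without vehicle library 3, 120 and 131 without both-compound libraries 1 and 2, and 133 without sacubitrilat library 3. Agreeing genes numbered 290 without vehicle library 2, 75 without vehicle library 1 or 3, and 76 and 80 without both-compound libraries 1 and 2. Genes passing in both contrasts with the same sign numbered 18 without vehicle library 3, of which 16 are among the 34, 20 without both-compound library 2 (15 among the 34) and 21 without endothelin-1 library 1 (19). They numbered 22 without vehicle library 1 (13 among the 34), endothelin-1 library 3 (20), sacubitrilat library 3 (21) or both-compound library 1 (17).

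**Figure D1:**
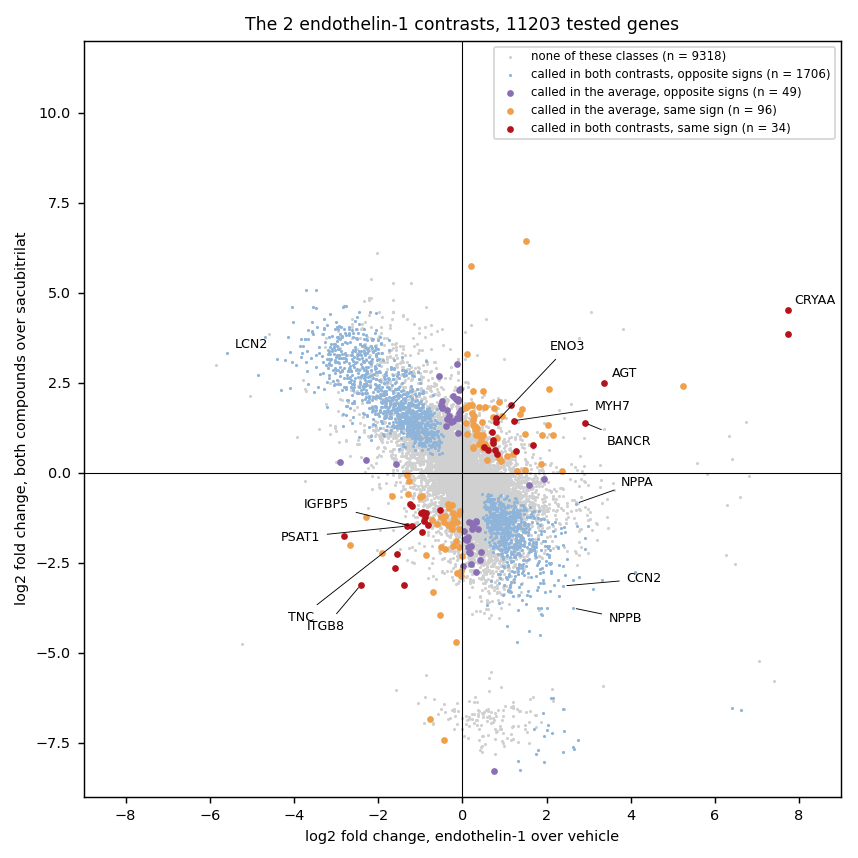
Each point is 1 of 11203 tested genes, placed by its log2 fold change of endothelin-1 over vehicle (horizontal) and of both compounds over sacubitrilat (vertical), and coloured by class; 49 purple points and 26 of the blue ones make up the 75 genes called in the average with opposite signs. The 1706 genes called in both with opposite signs lie along the falling diagonal, and the 34 called in both with the same sign lie in the upper right and lower left.

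MYH7, the slow beta-myosin heavy chain that is the main myosin of the adult human ventricle, rose with endothelin-1 in both settings. It stood at 1559, 1113 and 1538 CPM in the 3 vehicle libraries and at 3323, 3033 and 3095 CPM with endothelin-1. With sacubitrilat alone it stood at 1253, 1043 and 1140.2 CPM, and with both compounds at 4062, 2793 and 2201 CPM. All 6 libraries with endothelin-1 lay above all 6 without it. The average log2 fold change was 1.33 ± 0.18 (SE, 6 against 6 libraries; adjusted p = 7.79e-06, edgeR), made of 1.22 ± 0.25 without and 1.44 ± 0.25 with sacubitrilat, and the difference of the contrasts was 0.23 ± 0.35 (adjusted p = 0.62, edgeR). Among the 2969 genes with a mean of at least 50 counts that difference was 1.02 (adjusted p = 0.0106, edgeR). In bulk RNA, a change in the number of cells of a type and a change of RNA per cell cannot be told apart. The gene lies at chr14:23412738-23435718 on the minus strand of GRCh38, where GENCODE 29 also places the microRNA gene MIR208B and a gene on the opposite strand, AL132855.1. Its neighbour MYH6, the fast alpha-myosin heavy chain with a near-identical sequence between which reads could be split, stood at 656 to 897 CPM with vehicle, 903 to 1061 with endothelin-1, 1053 to 1137 with sacubitrilat and 608 to 979.6 with both compounds. Endothelin-1 thus lay above vehicle, and both compounds below sacubitrilat alone, with no overlap in either, and the MYH6 average was -0.09 ± 0.15 (adjusted p = 0.834, edgeR).

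MYH7B, a further myosin heavy chain gene that hosts the microRNA miR-499, was also higher in the average. Its libraries held 31.6, 24.7 and 64.5 CPM with vehicle, 89.9, 76.5 and 99.0 CPM with endothelin-1, 29.4, 35.5 and 32.9 CPM with sacubitrilat and 309, 50.4 and 59.3 CPM with both compounds. Both-compound library 1 stood far above the other 11, and vehicle library 3 lay above 2 of the libraries with endothelin-1. The average log2 fold change was 1.52 ± 0.27 (adjusted p = 0.000637, edgeR), and without both-compound library 1 it was 0.99 with an adjusted p of 0.0778.

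The metabolic genes of this class were ENO3, FABP3, SLC2A3 and PPM1K. ENO3 encodes the muscle form of the glycolytic enzyme enolase (chr17:4948092-4957131, plus strand). PFN1 overlaps it on the opposite strand, and the strand setting of the counting is not given. ENO3 held 289, 186 and 223 CPM with vehicle, 441, 417 and 415 CPM with endothelin-1, 158, 157 and 151 CPM with sacubitrilat and 401, 356 and 422 CPM with both compounds. The 6 libraries with endothelin-1 were all above the other 6, by an average log2 fold change of 1.10 ± 0.13 (adjusted p = 1.36e-06, edgeR). FABP3, the fatty acid-binding protein of heart muscle (chr1:31365625-31376850, minus strand), held 101, 37.1 and 105 CPM with vehicle and 289, 311 and 277 CPM with endothelin-1. Under sacubitrilat it held 108, 93.0 and 135 CPM, and with both compounds 223, 189 and 144 CPM. Its 6 libraries with endothelin-1 were again all above the rest, by 1.23 ± 0.18 on the log2 scale (adjusted p = 2.33e-05, edgeR), but the rise without sacubitrilat (1.69) was larger than that with it (0.77, adjusted p of the difference 0.026, edgeR). As for every difference of the contrasts, this and the unequal library totals cannot be told apart. SLC2A3, the glucose transporter GLUT3, rose by 0.91 ± 0.18 (adjusted p = 0.00348, edgeR), from 54.8 to 95.1 mean CPM without sacubitrilat and from 57.7 to 120 mean CPM with it. PPM1K, the mitochondrial phosphatase that activates branched-chain ketoacid dehydrogenase, rose by 0.82 ± 0.19 (adjusted p = 0.0139, edgeR), a call that was lost without vehicle library 3 or both-compound library 1 or 2 (adjusted p = 0.0731 to 0.183).

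**Figure D2:**
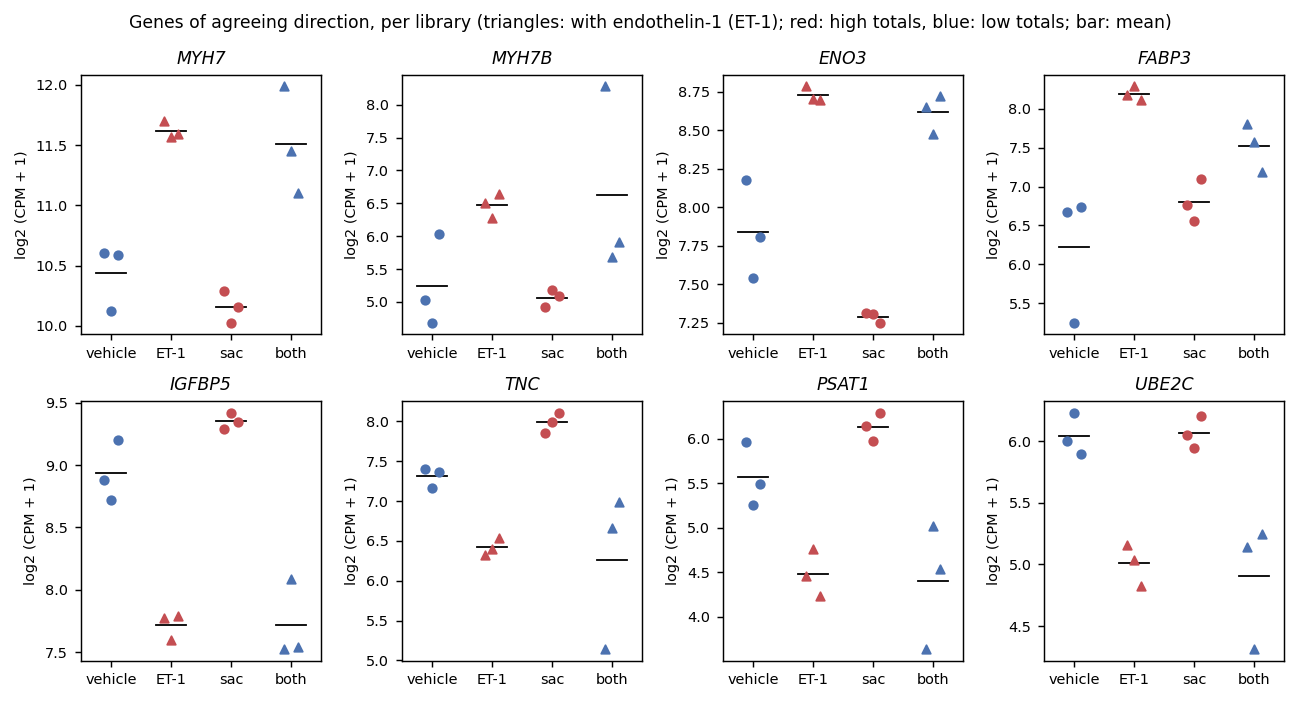
Each panel shows 1 gene of agreeing direction as log2 (CPM + 1) in every library, with triangles for libraries with endothelin-1, circles for those without, red for groups with high and blue for groups with low total counts, and a bar at the group mean. MYH7, ENO3 and FABP3 show all 6 triangles above all 6 circles, IGFBP5, TNC, PSAT1 and UBE2C show them all below, and in MYH7B they overlap.

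HSPG2, BGN, NEAT1, BANCR, DENND5B and ROGDI were further agreeing genes that rose. HSPG2, the basement membrane proteoglycan perlecan, went from 236 to 533 mean CPM without sacubitrilat and from 259 to 385 with it, an average of 0.94 ± 0.13 (adjusted p = 1.46e-05, edgeR) with a larger rise without sacubitrilat (1.28 against 0.59, adjusted p of the difference 0.029). BGN, the small proteoglycan biglycan, held 61.8 to 82.0 CPM with vehicle, 110.5 to 144 with endothelin-1, 59.1 to 73.7 with sacubitrilat and 103 to 126 with both compounds. Its average of 0.78 ± 0.19 (adjusted p = 0.0189, edgeR) came from near-equal contrasts of 0.74 and 0.82, and the call was lost without vehicle library 1 or 3 or both-compound library 2 or 3 (adjusted p = 0.0607 to 0.14). NEAT1, the long non-coding RNA that builds nuclear paraspeckles, held 1014 to 1078 CPM with vehicle, 1651 to 1794 with endothelin-1, 694 to 709.9 with sacubitrilat and 1375 to 2796 with both compounds. The NEAT1 average was 1.15 ± 0.16 (adjusted p = 1.46e-05, edgeR) with no overlap of the 6 and 6 libraries. BANCR, a long non-coding RNA first named for its induction by mutant BRAF, held 34.7, 12.4 and 5.86 CPM with vehicle, 186, 155 and 167 CPM with endothelin-1, 16.2, 17.3 and 14.8 CPM with sacubitrilat and 57.3, 31.5 and 37.1 CPM with both compounds. BANCR rose by 2.15 ± 0.35 (adjusted p = 0.000191, edgeR), more without sacubitrilat (2.92) than with it (1.38, adjusted p of the difference 0.035). DENND5B, a DENN-domain gene, rose by 0.68 ± 0.14 (adjusted p = 0.00458, edgeR), and ROGDI by 0.70 ± 0.18 (adjusted p = 0.0305, edgeR). DENND5B was not called without vehicle library 3 or both-compound library 2 (adjusted p = 0.0585 and 0.0965), nor ROGDI without any 1 of vehicle libraries 1 and 3 and the both-compound libraries (0.0605 to 0.247). With the replicate block ROGDI was not called either (adjusted p = 0.0528).

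Among the genes that fell, IGFBP5, a secreted binding protein of insulin-like growth factors, had the smallest p in the average. It lies at chr2:216672105-216695525 on the minus strand, with AC007563.2 on the opposite strand. It held 470.1, 421 and 586 CPM with vehicle and 218, 193 and 220.1 CPM with endothelin-1, then 624, 684 and 649 CPM with sacubitrilat and 183, 271 and 185 CPM with both compounds. All 6 libraries with endothelin-1 were below all others, at an average of -1.34 ± 0.14 (adjusted p = 6.84e-08, edgeR), or -1.19 without and -1.50 with sacubitrilat. TNC, the matrix glycoprotein tenascin-C, held 142 to 169 CPM with vehicle, 79.4 to 91.9 with endothelin-1, 231 to 275 with sacubitrilat and 34.4 to 126 with both compounds, again without overlap, at -1.14 ± 0.17 (adjusted p = 5.65e-05, edgeR). SFRP5, a secreted antagonist of Wnt ligands, fell by 1.02 ± 0.16 on the log2 scale (adjusted p = 8.25e-05, edgeR), and both-compound library 3 (200.1 CPM) lay above vehicle library 2 (161 CPM). PSAT1, the phosphoserine aminotransferase of serine synthesis (chr9:78297143-78330093, plus strand), held 61.5, 37.1 and 44.0 CPM with vehicle, 21.0, 26.1 and 17.7 CPM with endothelin-1, 69.4, 61.9 and 77.3 CPM with sacubitrilat and 11.5, 31.5 and 22.2 CPM with both compounds. Its average was -1.40 ± 0.27 (adjusted p = 0.00263, edgeR), with an adjusted p of 0.0947 without vehicle library 1. Its 6 libraries with endothelin-1 were all below the others, with 9 counts in the 3 both-compound libraries together. DTD1, a D-aminoacyl-tRNA deacylase, fell by 1.05 ± 0.26 (adjusted p = 0.0213, edgeR), and its call was lost without vehicle library 1 or both-compound library 1 (adjusted p = 0.0521 and 0.0838) and without the 2 libraries under 100000 counts.

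Of the 34 genes called in both contrasts with the same sign, 21 had no overlap between the 6 libraries with and the 6 without endothelin-1, 12 higher and 9 lower. The same libraries chose the 34, and the agreeing genes named had no overlap within either contrast by choice. Nothing is read from this count, or from the lack of overlap given for those genes above and below. Of all tested genes 0.696% had no such overlap. The 17 higher genes held 0.74% to 0.775% of a library's counts with endothelin-1 and 0.56% to 0.969% with both compounds, against 0.335% to 0.399% in vehicle libraries and 0.299% to 0.328% in those of sacubitrilat. The choice of these genes sets the direction of their shares, so nothing is read from that direction either. The 19 named above and below as agreeing were those with a mean of at least 30 CPM, at least 4 counts in every group and no overlap of 3 against 3 libraries in either contrast, up to 12 per direction. VEGFB (0.62) and DOK4 (0.61) met these conditions beyond that number. The other 13 missed at least 1 of these conditions, and those described next, AGT, CRYAA and FTH1, are among them; CRYAA was chosen after its values were seen. AGT, the precursor of the angiotensin peptides, was counted 95 times with endothelin-1 and 1 time with vehicle, a ratio of CPM of 10.9 (95% interval 1.9 to 433, exact, counting error only), and 10 times with both compounds against 22 with sacubitrilat (5.47, 2.31 to 12). CRYAA, the lens chaperone alpha-A crystallin, had no count with vehicle and was at least 5.48-fold higher with endothelin-1, taking 3 counts over the group as the floor. It shares a near-identical copy, CRYAA2, with which reads could be split, and the contrast with sacubitrilat rests on 3 against 2 counts after rounding. FTH1, the ferritin heavy chain with many processed copies in the genome, averaged -1.07 ± 0.21 (adjusted p = 0.00313, edgeR), and its vehicle libraries spread from the level of the other groups upward (1133, 3868 and 705 CPM).

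Genes of the cell cycle were lower in the average: of 39 tested members of a list of 41, 6 fell and 1 rose by edgeR (8 and 1 by DESeq2, 3 and 1 by limma-voom, 2 and 0 by limma-trend), and 3 had an average above 0. Of all tested genes these tools called 0.821%, 1.65%, 0.964% and 0.268% lower in the same order. They called 1.01%, 1.64%, 0.964% and 0.205% higher. At an unadjusted p under 0.05 edgeR had 15 members lower and 1 higher, beside 8.49% and 6.34% of all tested genes. The list's median was -0.48 (-0.51 without and -0.59 with sacubitrilat), beside -0.05 for all tested genes, of which 5040 were above 0. In 22 of the 39 both contrasts were below 0 and in 2 both were above, against 1475 and 1146 of all 11203. The 6 that fell are known from mitosis: UBE2C, the ubiquitin-conjugating enzyme of the anaphase-promoting complex, CDC20, its activator, CENPF, a kinetochore protein, TOP2A, the topoisomerase that untangles chromosomes, BIRC5 (survivin), of the chromosomal passenger complex, and STMN1 (stathmin), which destabilises microtubules. CCND1, cyclin D1 of the G1 phase, rose by 0.62 ± 0.15 (adjusted p = 0.0188, edgeR), with 0.93 without and 0.32 with sacubitrilat.

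UBE2C held 63.1, 74.2 and 58.6 CPM with vehicle, 34.8, 31.9 and 27.3 CPM with endothelin-1, 65.4, 60.7 and 72.7 CPM with sacubitrilat and 34.4, 18.9 and 37.1 CPM with both compounds. Every library with endothelin-1 was below every other, at -1.05 ± 0.24 (adjusted p = 0.0122, edgeR), in both contrasts alike (-0.98 and -1.13). TACC3, a spindle protein outside the list, fell likewise, by 1.31 ± 0.26 (adjusted p = 0.00348, edgeR), from 53.6 to 82.0 CPM with vehicle and 61.7 to 77.3 with sacubitrilat to 29.9 to 35.4 with endothelin-1 and 11.5 to 25.2 with both compounds. CDC20 averaged -1.28 ± 0.27 (adjusted p = 0.0054, edgeR), with -0.51 without and -2.05 with sacubitrilat, contrasts that themselves differed (adjusted p = 0.0197). CENPF averaged -1.03 ± 0.25 (adjusted p = 0.0213, edgeR), from -0.73 and -1.33. The remaining 3, which the naming rule left out, averaged -1.01 (TOP2A), -0.94 (BIRC5) and -0.83 (STMN1), and STMN1 was 0.13 without sacubitrilat and -1.79 with it. Leaving out 1 library ended the call of UBE2C (vehicle library 1 or both-compound library 2, adjusted p = 0.09 and 0.0773), CDC20 (vehicle library 3, 0.0632), CENPF (vehicle library 3 or both-compound library 1 or 2, 0.0534 to 0.154) and CCND1 (vehicle library 1 or 3 or both-compound library 2 or 3, 0.0563 to 0.181). With both compounds the levels rest on few counts over 3 libraries: 11 for UBE2C, 8 for TACC3, 9 for CDC20 and 11 for CENPF.

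Promoters of late cell-cycle genes are known to carry a cell cycle genes homology region (CHR, TTTGAA), read by the DREAM and MYB-MuvB complexes, beside CCAAT boxes bound by NF-Y. Of the 6 genes that fell, 4 had an entry in the RefSeq promoter table (GRCh38.p14, from 250 bases before to 50 after the start). CDC20, CENPF and TOP2A held both motifs on either strand and STMN1 CCAAT alone. CHR letters occur in 15.2% of the 35116 promoters, CCAAT in 34.6% and both in 5.9%. The letters of the motifs can overlap by 1 base, which they do not in these promoters, and both were picked from 10 motifs searched after their matches were seen. The 3 promoters with both are shown 5′ to 3′, with capitals for either motif on either strand. A match is a description of these letters and not a bound site.
CDC20 (chr1:43358731-43359030, plus strand): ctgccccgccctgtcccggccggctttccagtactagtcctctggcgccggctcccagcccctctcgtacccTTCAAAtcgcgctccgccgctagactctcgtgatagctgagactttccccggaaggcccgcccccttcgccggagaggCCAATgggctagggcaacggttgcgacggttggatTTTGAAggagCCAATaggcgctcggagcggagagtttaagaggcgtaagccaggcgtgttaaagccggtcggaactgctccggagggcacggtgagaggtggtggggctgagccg
CENPF (chr1:214602945-214603244, plus strand): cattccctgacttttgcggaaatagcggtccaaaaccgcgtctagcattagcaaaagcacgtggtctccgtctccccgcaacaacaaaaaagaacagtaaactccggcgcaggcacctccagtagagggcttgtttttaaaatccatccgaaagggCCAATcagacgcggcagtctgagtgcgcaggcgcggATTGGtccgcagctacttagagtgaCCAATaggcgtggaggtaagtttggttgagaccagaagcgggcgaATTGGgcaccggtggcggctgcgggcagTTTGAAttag
TOP2A (chr17:40417847-40418146, minus strand): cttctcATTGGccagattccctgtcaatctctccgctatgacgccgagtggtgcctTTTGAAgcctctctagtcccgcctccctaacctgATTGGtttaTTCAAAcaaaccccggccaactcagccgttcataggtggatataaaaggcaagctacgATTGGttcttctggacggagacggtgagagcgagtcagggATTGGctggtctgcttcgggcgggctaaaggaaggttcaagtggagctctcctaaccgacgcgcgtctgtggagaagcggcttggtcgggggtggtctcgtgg
The windows of CDC20, CENPF and TOP2A held 2, 1 and 2 CHR matches and 2, 4 and 4 CCAAT matches.

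The amino acid response driven by the transcription factor ATF4 includes serine synthesis. In the average, edgeR called 3 of 24 tested members lower, DESeq2 4, limma-voom 4 and limma-trend 0. Of all tested genes they called 0.821%, 1.65%, 0.964% and 0.268% lower. None rose by these tools, and at an unadjusted p under 0.05 edgeR had 10 lower and 1 higher, beside 8.49% and 6.34% of all tested genes. The median was -0.41 (-0.51 without and -0.35 with sacubitrilat), with 3 members above 0. PSAT1, described above, had near-equal values in both contrasts (-1.32 and -1.49). PHGDH, the first enzyme of serine synthesis, averaged -0.67 ± 0.14 (adjusted p = 0.00521, edgeR), but through the contrast without sacubitrilat alone: it went from 252 ± 37.2 CPM (SD, n = 3) with vehicle to 85.2 ± 4.9 with endothelin-1, and from 214 ± 9.45 with sacubitrilat to 223 ± 97.2 with both compounds (difference 1.82, adjusted p = 4.9e-06, edgeR). SLC7A5, the large neutral amino acid transporter LAT1, averaged -1.13 ± 0.28 (adjusted p = 0.0213, edgeR) from -0.22 without and -2.04 with sacubitrilat, and was not called without vehicle library 1 or both-compound library 1 (adjusted p = 0.118 and 0.0942). ATF4 itself averaged -0.33 and ASNS, asparagine synthetase, -0.43, neither of them called.

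**Figure D3:**
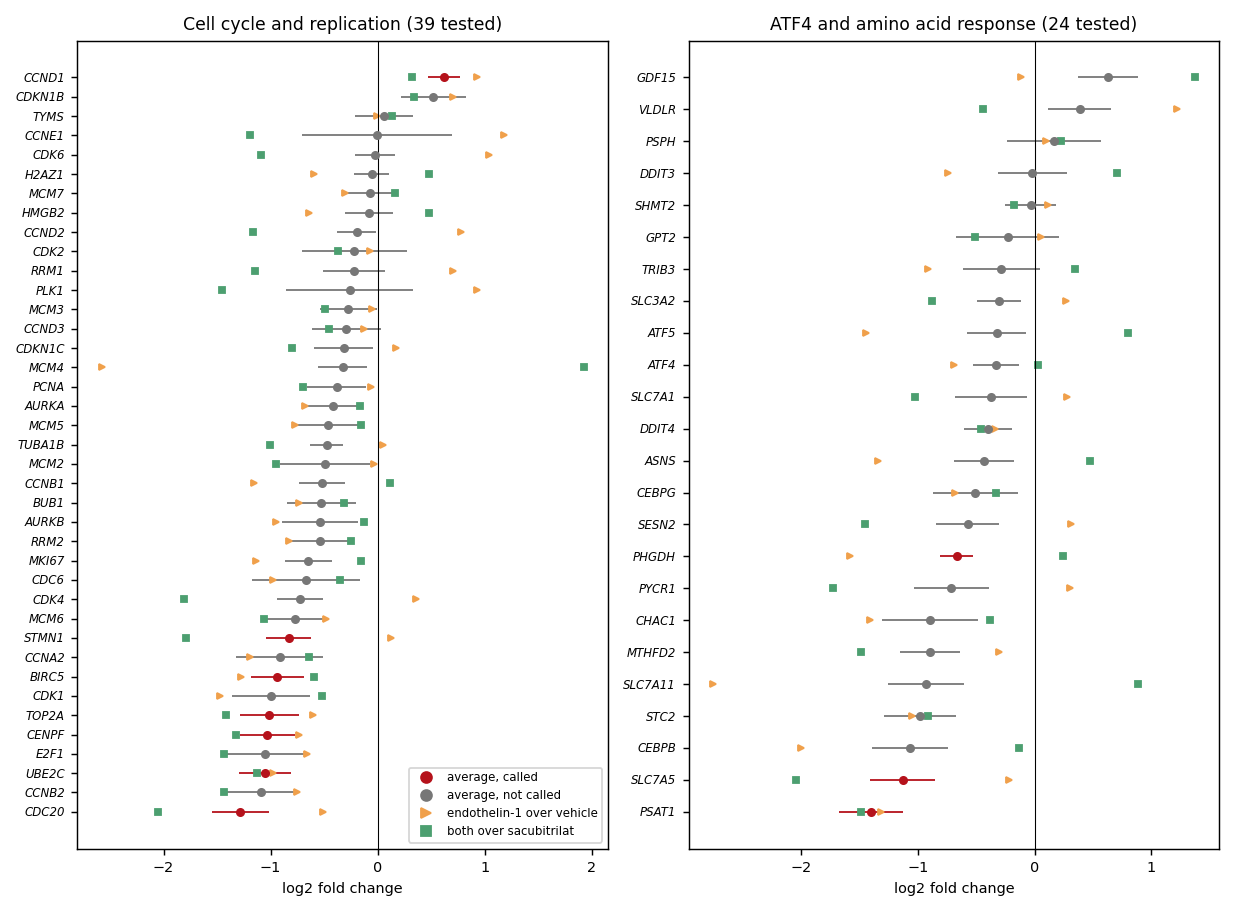
Each row is 1 tested gene of the cell cycle list (left, 39 genes) or the ATF4 list (right, 24 genes), with its average log2 fold change and SE as a circle (red where called) and the contrasts without (orange) and with sacubitrilat (green). The averages of 3 genes in each list lie above 0, and CDC20 and PSAT1 are lowest.

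Of the endothelin and hypertrophy genes tested beside MYH7, all 8 had contrasts of opposite sign, and NPPA, NPPB and EDNRA passed the threshold in both. NPPA, the gene of atrial natriuretic peptide, held 855, 210.3 and 615 CPM with vehicle and 3866, 3992 and 3650.5 CPM with endothelin-1, but 1682, 1566 and 1684 CPM with sacubitrilat and 516, 1077 and 919 CPM with both compounds. It rose by 2.70 ± 0.32 without sacubitrilat (adjusted p = 3.8e-08, edgeR) and fell by 0.86 with it (adjusted p = 0.027, edgeR), so that the average of 0.92 ± 0.22, though called (adjusted p = 0.0174, edgeR), is the mean of opposed values. The NPPA average was not called without vehicle library 3 or both-compound library 2 or 3 (adjusted p = 0.0762 to 0.163). NPPB, the gene of B-type natriuretic peptide, held 119.9, 24.7 and 82.0 CPM with vehicle, 564, 568 and 547 CPM with endothelin-1, 619, 629.6 and 779.8 CPM with sacubitrilat and 34.4, 44.1 and 59.3 CPM with both compounds. It was high in both groups with high totals and low in both with low totals, with contrasts of 2.62 and -3.76 (difference -6.38 ± 0.41, adjusted p = 3.3e-15, edgeR) and an average of -0.57 that was not called (adjusted p = 0.273). EDNRA, the endothelin A receptor, followed the same order: 0 to 38.1 CPM with vehicle, 84.2 to 109.9 with endothelin-1, 98.4 to 107 with sacubitrilat and 14.8 to 45.8 with both compounds, contrasts of 1.66 and -2.03.

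ACTA1, skeletal alpha-actin, stood at 37.1 to 136 CPM with vehicle, 149 to 169 with endothelin-1, 234 to 287 with sacubitrilat and 11.5 to 113 with both compounds, an average of -0.63 (adjusted p = 0.136, edgeR). In 2 of 23 other settings, the exchanged labels aside, this average was called (lowest adjusted p = 0.0132, edgeR). It ran from -1.105 to -0.42 over these settings. RCAN1, a calcineurin inhibitor that is itself a calcineurin target, averaged 0.25 from contrasts of 1.49 and -0.98 (adjusted p = 0.764, edgeR). EDN1, the endothelin-1 precursor, was counted too rarely for a level: 2 counts with vehicle and 2 with both compounds, beside 120 and 79 in the groups with high totals. For ATP2A2, the calcium pump of the sarcoplasmic reticulum, the average was 0.21 (adjusted p = 0.544, edgeR). EDNRB, MME and NPR3, the natriuretic peptide clearance receptor, did not pass the filter. Of 37 tested genes of Gq, phospholipase C and protein kinase C (median -0.07) edgeR called 0, with 5 at an unadjusted p under 0.05, DESeq2 called 1 and limma-voom 0, beside 1.83%, 14.8%, 3.29% and 1.93% of all tested genes. Of 28 immediate early genes and ERK feedback regulators (median -0.10) edgeR, DESeq2 and limma-voom called 0, and 7 had an unadjusted p under 0.05 in edgeR. At these shares of all genes, lists of this size that hold no call are no result about their members.

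**Figure D4:**
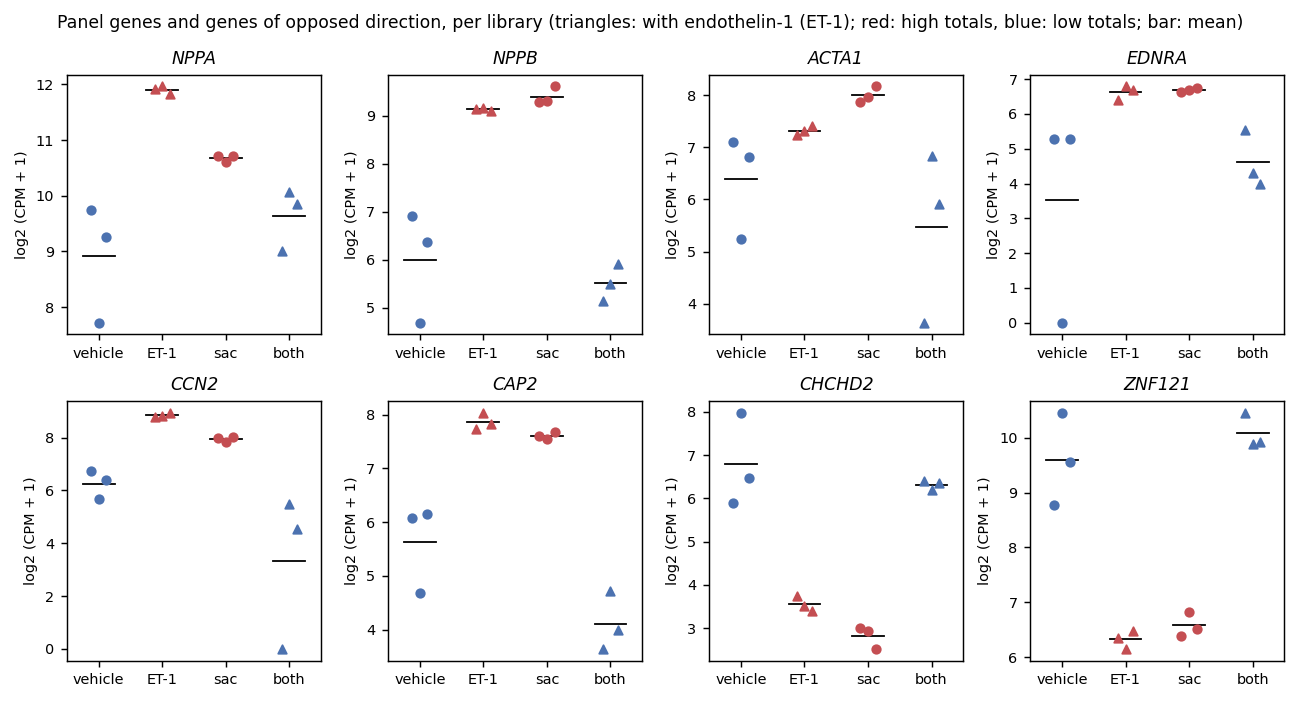
Each panel shows 1 gene as log2 (CPM + 1) in every library, with triangles for libraries with endothelin-1, circles for those without, red for groups with high and blue for groups with low total counts, and a bar at the group mean. In NPPB, EDNRA, CCN2 and CAP2 the red groups are the higher ones, in CHCHD2 and ZNF121 the blue ones, and in NPPA endothelin-1 stands above sacubitrilat within the red groups.

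Among 38 tested sarcomere genes (median 0.16) 4 rose in the average by edgeR, among them MYH7, MYL3 and MYOM1, beside 1.01% of all tested genes. By the same test 0 fell. At an unadjusted p under 0.05 edgeR had 12 higher and 5 lower, beside 6.34% and 8.49% of all tested genes, and DESeq2 called 7 higher and 2 lower (1.64% and 1.65%). Limma-voom called 5 higher and 0 lower (0.964% each of all tested genes), and limma-trend 1 and 0 (0.205% and 0.268%). MYL3, the ventricular essential light chain, averaged 0.95 ± 0.20 (adjusted p = 0.00673, edgeR) from -0.23 without and 2.13 with sacubitrilat. MYOM1, the M-band protein myomesin, averaged 0.59 ± 0.15 (adjusted p = 0.0213, edgeR) from 0.50 and 0.69. MYOM1 was not called without the 2 libraries under 100000 counts (adjusted p = 0.122). Its call was also lost without any 1 of vehicle libraries 1 and 3 and both-compound libraries 1 and 2 (0.0565 to 0.217). HRC, which binds calcium in the sarcoplasmic reticulum, averaged 1.11 ± 0.14 (adjusted p = 3.7e-06, edgeR), all of it from the contrast with sacubitrilat (2.30, against -0.07), and was the 1 gene called of 26 in calcium cycling and ion channels. Fatty acid uptake and oxidation had 28 tested genes with a median of 0.27 and contrasts close to each other (0.18 and 0.32), of which FABP3 was the 1 called, and 20 were above 0. Glycolysis and lactate handling had 30 with a median of 0.21 (0.48 without and -0.10 with sacubitrilat) and 2 called, ENO3 and SLC2A3. Of all tested genes edgeR called 1.01% higher, beside 1 of 26, 1 of 28 and 2 of 30 in these lists. The 75 nuclear-encoded respiratory chain genes had medians of 0.31 without and -0.19 with sacubitrilat. Of them 3 rose by edgeR, 8 by DESeq2, 1 by limma-voom and 0 by limma-trend, beside 1.01%, 1.64%, 0.964% and 0.205% of all tested genes. At an unadjusted p under 0.05 edgeR had 13 higher and 1 lower, beside 6.34% and 8.49%. The 3 were COX5A of cytochrome oxidase (0.65 ± 0.13, adjusted p = 0.00297, edgeR, from 0.43 and 0.87), and 2 genes of complex I with opposed contrasts, NDUFV1 (-1.38 and 2.84) and NDUFS8 (-0.92 and 1.71). GAMT and SLC6A8, which make and import creatine, averaged 0.73 and 0.65 from contrasts of opposite sign. The replicate block ended the calls of NDUFV1 (adjusted p = 0.0696), NDUFS8 (0.185) and SLC6A8 (0.0767). So did leaving out any 1 library with high totals for NDUFV1 (0.071 to 0.0993), any 1 of 10 libraries for NDUFS8 (all but vehicle library 2 and both-compound library 1, 0.0527 to 0.292), any 1 of 9 for SLC6A8 (all but vehicle library 2, endothelin-1 library 2 and both-compound library 3, 0.0551 to 0.377), and endothelin-1 library 1 or 2, sacubitrilat library 1 or 3 or both-compound library 1 for GAMT (0.0507 to 0.141).

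Matrix genes and TGF-beta targets gave 4 higher and 2 lower of 41 tested (median -0.10), beside 1.01% and 0.821% of all tested genes. At an unadjusted p under 0.05 edgeR had 8 higher and 13 lower, beside 6.34% and 8.49%. DESeq2 called 6 higher and 2 lower (1.64% and 1.65% of all tested genes). Limma-voom called 3 and 1 (0.964% each), and limma-trend 0 and 0 (0.205% and 0.268%). The list's medians were 0.87 without and -1.02 with sacubitrilat. Beside BGN, FBN1 (fibrillin-1) averaged 0.78 ± 0.19 (adjusted p = 0.0181, edgeR) from 1.48 and 0.08, TGFB1 0.77 ± 0.15 (adjusted p = 0.00313, edgeR) from -1.15 and 2.69, and COL6A1 (a type VI collagen chain) -1.37 ± 0.26 (adjusted p = 0.00247, edgeR) from 0.87 and -3.62. TIMP1 and NREP are the remaining members called and lie outside the naming rule. Single libraries ended the calls of FBN1 (vehicle library 3 or both-compound library 2 or 3, adjusted p = 0.0871 to 0.161), TGFB1 (both-compound library 3, 0.135) and COL6A1 (vehicle library 1, 0.105). Of 32 targets of SRF, MRTF and YAP edgeR called 2 lower, beside 0.821% of all tested genes. These were CNN3 (calponin-3, -0.96) and CCN1 (a matricellular protein, -1.18), both with contrasts near 0 without sacubitrilat (0.14 and 0.19) and below -2 with it (-2.06 and -2.55). The endoplasmic reticulum chaperones CALR (calreticulin) and PDIA3 averaged -0.60 and -0.80, the heat shock protein HSPH1 -1.06, the peroxiredoxin PRDX1 -0.67 and the translation factor EEF1A2 0.56. EdgeR called 2 of 19 tested chaperones, 1 of 18 heat shock genes and 2 of 20 NRF2 and iron genes lower, beside 0.821% of all tested genes. It called 1 of 40 genes of ribosome biogenesis and translation higher, beside 1.01%. Contrasts of opposite sign lay behind CALR (0.37 without and -1.56 with sacubitrilat), PRDX1 (0.24 and -1.57) and EEF1A2 (-0.37 and 1.49). PDIA3 had -0.40 and -1.20, and HSPH1 -0.07 and -2.05. With the replicate block, CALR (adjusted p = 0.11), PDIA3 (0.051), HSPH1 (0.0773) and CCN1 (0.0634) were not called, and each call was lost without any 1 of 5 (PDIA3) to 10 single libraries (0.0515 to 0.327). CNN3 was not called without vehicle library 1 (0.0585), nor EEF1A2 without vehicle library 1 or both-compound library 1 or 3 (0.07 to 0.0992), and PRDX1 kept its call without any 1 library. Of 78 cytosolic ribosomal protein genes (median -0.11) edgeR called 0 in the average, with 13 at an unadjusted p under 0.05 (14.8% of all tested genes), while DESeq2 called 2 higher and 13 lower (1.64% and 1.65% of all tested genes). Of 21 p53 targets (median 0.25) edgeR, DESeq2 and limma-voom called 0, with 3 at an unadjusted p under 0.05 in edgeR, a share near that of all tested genes.

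**Figure D5:**
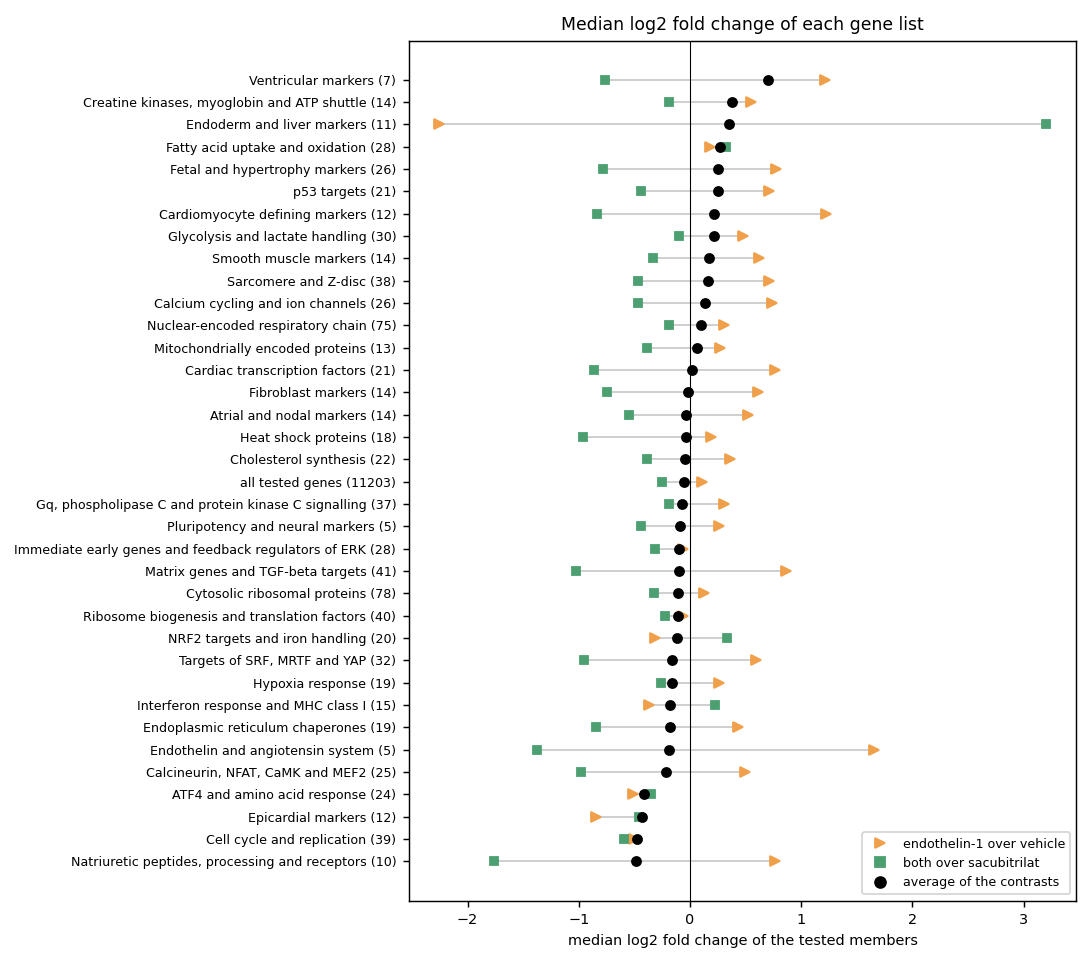
Each row is 1 gene list with at least 5 tested members (their number in brackets), with the median log2 fold change of those members without sacubitrilat (orange), with it (green) and in the average (black), and a row for all 11203 tested genes. For cell cycle, ATF4 and fatty acid genes the orange and green points lie on the same side of 0 and near each other, while ventricular markers and the natriuretic list (medians of 0.70 and -0.49 in the average) have them far apart. Both points also lie below 0 for epicardial markers (-0.84 and -0.46), immediate early and ERK feedback genes (-0.07 and -0.32) and ribosome biogenesis (-0.06 and -0.23).

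The 1706 genes of opposed direction divide into 702 (6.27%) that were higher with endothelin-1 alone and lower with both compounds, and 1004 (8.96%) of the reverse order. All 1706 passed the test of the difference. Being called in both contrasts with opposite signs in the same fit all but fixes this, so nothing is read from it. In the 702 each contrast has the sign of its difference in total counts, and in the 1004 the reverse sign, so for these genes the response to endothelin-1 and the unequal library totals cannot be told apart. The 702 took 16.9% to 17.5% of counts with endothelin-1 and 15.7% to 16.9% with sacubitrilat, against 6.04% to 9.1% with vehicle and 4.56% to 6.1% with both compounds. The 1004 took 7.34% to 7.69% and 7.99% to 8.77% in the groups with high totals, and 16.3% to 27.6% and 22.9% to 29.1% in those with low totals. The same libraries chose both classes, so the direction of these shares is no further result. The classes also differ in kind: 97.3% of the 702 are protein-coding, and of the 1004 60.8% are protein-coding, 25.2% long non-coding and 11.6% pseudogenes, beside 88%, 8.27% and 2.83% of all tested genes. Long non-coding RNAs took 7.6% to 10.1% of all counts with vehicle and 9.22% to 10.9% with both compounds. They took 5.19% to 5.29% with endothelin-1 and 5.35% to 5.63% with sacubitrilat. The classes were chosen in these libraries, so nothing about the response is read from their kinds.

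Among the 702, the 8 named were those whose smaller contrast was largest: NPPB, CCN2, PKDCC, CRABP2, CCDC141, RBM38, CAP2 and TEAD3. CCN2, connective tissue growth factor, held 104, 49.5 and 82.0 CPM with vehicle, 441, 445 and 491 CPM with endothelin-1, 252, 226 and 259.8 CPM with sacubitrilat and 0, 44.1 and 22.2 CPM with both compounds. Between the groups with high totals the mean was 459 CPM with endothelin-1 and 246 with sacubitrilat, and between those with low totals 22.1 CPM with both compounds and 78.5 with vehicle. The contrasts, which cross the totals, were 2.40 and -3.15 (difference -5.55 ± 0.44, adjusted p = 4.8e-13, edgeR). CRABP2, a retinoic acid-binding protein, went from a range of 371 to 880.3 CPM to 2919 to 3058 without sacubitrilat, and from 1918 to 2181 down to 289 to 447 with it. CAP2, a cyclase-associated protein that binds actin, had contrasts of 1.96 and -3.32, and TEAD3, a partner of YAP, 1.91 and -1.90.

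Among the 1004, the named genes were LINC01133, LCN2, ZNF121, LENG8-AS1, CHCHD2, CLDN4, AS3MT and ZNF432. ZNF121, a zinc finger gene, held 435, 1404 and 756 CPM with vehicle, 80.3, 69.9 and 88.1 CPM with endothelin-1, 83.0, 113 and 90.1 CPM with sacubitrilat and 1398, 938 and 963 CPM with both compounds. Every library of low total was above every library of high total, with contrasts of -3.13 and 3.56. The averages of these 16 genes ran from -1.13 (LCN2) to 0.35 (CHCHD2), and none of them was called by edgeR. CHCHD2, which encodes a protein of the mitochondrial intermembrane space, held 58.4 to 251 CPM with vehicle and 72.4 to 83.1 with both compounds, against 9.60 to 12.5 and 4.74 to 6.98 in the groups with high totals. LCN2, the iron-binding secreted protein lipocalin-2, spread from 17.6 to 569 CPM within vehicle and stayed at 0.734 to 6.31 CPM in the groups with high totals. LENG8-AS1 overlaps LENG8 on the opposite strand, and the strand setting of the counting is not given in the sources used here.

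Markers of other cells were counted beside these results. All 12 defining cardiomyocyte markers were detected in each group and summed to 6620 to 14900 CPM with vehicle, 24000 to 25200 with endothelin-1, 17800 to 19300 with sacubitrilat and 9990 to 15900 with both compounds. The 16 fibroblast markers summed to 2130 to 5470, 7230 to 8050, 7490 to 7830 and 2330 to 4890 CPM in the same order, with 1 at 0 in vehicle. The 14 epicardial markers, of which TBX18 fell (-1.57 ± 0.37, adjusted p = 0.0162, edgeR; 0.399 without vehicle library 1 and 0.0688 without both-compound library 2), summed to 4420 to 7020, 6530 to 6810, 8350 to 8550 and 3320 to 8160 CPM. Smooth muscle markers (14) summed to 7930 to 9080, 8760 to 9120, 7080 to 7210 and 10600 to 14300 CPM: with both compounds they lay above sacubitrilat alone, and with endothelin-1 they overlapped vehicle. The 14 endothelial markers stayed between 39.9 and 103 CPM in sum, with 4, 2, 1 and 6 of them at 0 in the 4 groups in the same order. The 18 endoderm and liver markers summed to 410 to 490 CPM in the groups with high totals and 614 to 1110 in those with low totals. The 14 matched pluripotency and neural markers summed to 548 to 608 and 905 to 1590 CPM in the same way. APOA1, an apolipoprotein in the endoderm list, was called in the average (0.79) from contrasts of -1.21 and 2.78, and S100A4 in the fibroblast list (0.85 ± 0.20, adjusted p = 0.0181, edgeR) from 0.24 and 1.46. APOA1 was not called with the replicate block (adjusted p = 0.0579) or without any 1 of 9 libraries (all but vehicle library 2, endothelin-1 library 1 and sacubitrilat library 3, 0.0504 to 0.285), nor S100A4 without vehicle library 1 or 3 or both-compound library 1 or 2 (0.0631 to 0.117). The part of other cell types in the results above was not tested.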

How the data were processed

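Cells were treated in 4 groups of 3 cultures, and stranded 3′-end libraries with molecular identifiers were made, per the labels' protocols. The submitters' processing notes name fastp 0.24.0, featureCounts and GRCh38. Aligner, annotation release, use of the identifiers and strand setting were not given in the sources used here. The authors deposited estimated counts per gene, 21.1% of them not whole, and CPM, which equalled count shares (largest difference 1.46e-11). Counts were rounded for the tests. The 92 spike-in features were left out.

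All 12 libraries were fitted in 1 model of 4 groups (edgeR 4.0.16 quasi-likelihood test, TMM, filterByExpr, R 4.3.3; Benjamini-Hochberg threshold 0.05), with contrasts for endothelin-1 without sacubitrilat, with it, their mean and their difference. Fold changes are log2 values computed here from the deposited counts. Members, gene lists (36 lists, 773 of 910 genes tested) and named genes were chosen with earlier results of these data known. The text names a panel (EDN1, EDNRA, EDNRB, MME, NPPA, NPPB, NPR3, MYH6, MYH7, ACTA1, RCAN1, ATP2A2), up to 12 agreeing genes per direction called in both contrasts, up to 8 opposed genes per order, and up to 4 called members per list by p; some results are not reported here. Agreeing and opposed genes named carried a symbol, averaged 30 CPM or more, had at least 4 counts in each group and no overlap of 3 against 3 libraries in either contrast. Positions and overlaps came from GENCODE 29 by Ensembl identifier, and promoters from RefSeq (GRCh38.p14).

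The settings tried were DESeq2 1.42.0, limma-voom and limma-trend (limma 3.58.1, prior count 2), RLE scaling, a filter at 50 mean counts or none, a replicate block, an additive model, thinning to 80000 counts, each library left out, the 2 libraries under 100000 counts left out, mitochondrial genes left out, and the single-compound labels exchanged. The script was checked on simulated counts. Counting error alone is covered by intervals and by the floor of 3 counts. Libraries of 80844 to 316932 counts put 3 counts at 9.47 to 37.1 CPM, those of 1268308 to 1953122 at 1.54 to 2.37 CPM. Same-numbered libraries did not deviate together (r from -0.146 to 0.0396 over 18 pairs, none over 0.1). The labels call replicates biological, and all come from 1 line, so p-values measure the spread between these cultures. Plots used matplotlib 3.10.9 (Python 3.11.15).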

Additional observations from a re-analysis of the deposited data

Results flagged for a closer look

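For these results the contrasts without and with sacubitrilat differed by the test of the difference (edgeR, adjusted p under 0.05). Over all tested genes these were 5163 of 11203, and 46 of the 70 named genes. The difference sets the 2 groups with high totals against the 2 with low totals, so it and the library totals cannot be told apart. Values are the contrast with minus the contrast without sacubitrilat, on the log2 scale.

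Among the endothelin and hypertrophy panel the difference was -6.38 for NPPB, -4.37 for EDN1, -3.69 for EDNRA, -3.56 for NPPA, -2.47 for RCAN1, -2.31 for ACTA1, -0.82 for MYH6 and 0.86 for ATP2A2. The calls of the last pair were each lost without any of several single libraries. EDN1 rests on 2 counts with vehicle and 2 with both compounds, and its contrast with sacubitrilat was not called (adjusted p = 0.149, edgeR). Its difference ran from -9.41 to -3.99 in the 6 fits without 1 library that tested it.

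Opposed genes that were higher with endothelin-1 alone had differences of -5.55 (CCN2), -5.27 (CAP2), -4.89 (PKDCC), -4.39 (CRABP2), -4.12 (CCDC141), -4.00 (RBM38) and -3.81 (TEAD3). Those of the reverse order had 8.90 (LCN2), 7.38 (LINC01133), 6.88 (CHCHD2), 6.70 (ZNF121), 6.43 (AS3MT), 6.28 (LENG8-AS1), 6.20 (CLDN4) and 6.19 (ZNF432). The difference of all 16 opposed genes named, NPPB included, was called without any 1 of the 12 libraries. These genes were chosen for large opposed contrasts in the same libraries.

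Of the agreeing genes called in both contrasts 3 differed in size: BANCR by -1.54, FABP3 by -0.92 and HSPG2 by -0.68, each with the larger rise without sacubitrilat.

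Members of lists that were called in the average and differed toward a higher contrast with sacubitrilat were NDUFV1 (4.22), APOA1 (3.99), TGFB1 (3.84), GAMT (2.84), NDUFS8 (2.63), HRC (2.37), MYL3 (2.36), SLC6A8 (2.27), EEF1A2 (1.86), PHGDH (1.82) and S100A4 (1.21). Those that differed toward a lower one were COL6A1 (-4.49), CCN1 (-2.74), CNN3 (-2.20), HSPH1 (-1.98), CALR (-1.92), SLC7A5 (-1.82), PRDX1 (-1.80), CDC20 (-1.55) and FBN1 (-1.40).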

How the results depend on the processing

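The average called 205 genes, and 369 with DESeq2, 366 without the 2 libraries under 100000 counts, 121 with the replicate block, 53 with limma-trend, 34 of 1853 tested after thinning to 80000 counts, 29 with the labels exchanged and 9 in the additive model. Leaving out 1 library gave 110 (vehicle library 3) to 540 (vehicle library 2). Agreeing genes (130) numbered 84 with the replicate block, 36 with limma-trend, 21 after thinning, 12 with the labels exchanged, and 75 (vehicle library 1) to 290 (vehicle library 2) without 1 library. Genes called in both contrasts with the same sign (34) numbered 22 without the 2 libraries under 100000 counts, 18 with no filter, 10 with limma-trend, 5 after thinning, 4 with the labels exchanged and 18 to 32 without 1 library. Of the 34, the class was kept by all with RLE scaling, 28 with DESeq2, 28 with limma-voom, 26 with the block, 18 without the 2 libraries under 100000 counts, 14 with no filter, 11 of 22 tested with a mean of at least 50 counts, 9 with limma-trend, 5 of 18 tested after thinning, 2 with the labels exchanged, and 13 (vehicle library 1) to 25 (both-compound library 3) without 1 library. Opposed genes (1706) numbered 951 with limma-trend, 663 with a mean of at least 50 counts (2969 genes tested), 336 after thinning and 1230 to 1785 without 1 library. The contrast without sacubitrilat called 1324 with limma-trend, 992 with the mean filter and 447 after thinning, and 1812 to 2871 without 1 library. The contrast with sacubitrilat called 1351 and 801, and 2816 to 5068. The difference called 1587 and 950, and 3718 to 6084. With thinning or fewer libraries the genes to test were chosen again. No filter moved the split of the average to 47 higher and 127 lower. Beyond the average and agreeing counts, the replicate block moved no count by over 1.5 times. Among the 70 named genes it ended 9 average calls (ROGDI, APOA1, CALR, CCN1, HSPH1, NDUFS8, NDUFV1, PDIA3 and SLC6A8). Averages or differences of named genes lost their call 44 times in the additive model, 35 with limma-trend, 24 after thinning and 14 with no filter. Agreeing genes not called in the average by limma-trend were BGN (adjusted p = 0.0586), PSAT1 (0.0732), PPM1K (0.0815), TNC (0.0905), ROGDI (0.101), SFRP5 (0.122), MYH7B (0.148) and DTD1 (0.332).

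Of the 19 agreeing genes named, 11 were called in the average without any 1 library, and of the 36 called members of lists 10; AGT kept its call in the 6 fits that tested it. Signs in the average reversed mainly with the labels exchanged, none of them then called: BANCR -1.37, CCND1 -0.49, ENO3 -0.46, NPPA -0.42, RCAN1 -0.31, NEAT1 -0.26, PPM1K -0.25, MYH7 -0.25, FABP3 -0.25, HSPG2 -0.22, ATP2A2 -0.21, S100A4 -0.19, BGN -0.17, MYL3 -0.17, EEF1A2 -0.15, DENND5B -0.14, FBN1 -0.079, SLC6A8 -0.075, HRC -0.068, MYH7B -0.043, EDN1 -0.020, PHGDH 0.55, TBX18 0.42, TNC 0.33, SFRP5 0.31, PSAT1 0.20 and IGFBP5 0.17. Averages that were not called also changed sign: EDNRA was 0.40 with limma-trend, 0.36 after thinning, 0.072 in the additive model, 0.018 with limma-voom, and -0.43 to 0.040 without 1 library (positive without vehicle library 1), MYH6 0.11 after thinning, and ATP2A2 -0.030 (without both-compound library 1) to 0.34 without 1 library. After thinning APOA1 was -0.074. The MYH7 difference, not called in any of these, was -0.53 with no filter, and from -0.36 (vehicle library 1) to 0.49 without 1 library, with -0.11 without both-compound library 1, -0.10 without vehicle library 3 and -0.03 without both-compound library 2. The cause of these changes was not tested. Genes near 10 CPM rest on a few counts in the libraries of low total, where a fall was hardly detectable. In both-compound library 1 and vehicle library 2 this reaches 34.4 and 37.1 CPM, which equal 3 counts. Among others, CCN1, TBX18, SLC7A5, HSPH1 and DTD1 had 5, 6, 7, 8 and 10 counts over the 3 both-compound libraries.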
